A study of Mus musculus with 16 samples.

Results

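The NMDA receptor subunit genes are the 7 mouse genes Grin1, Grin2a, Grin2b, Grin2c, Grin2d, Grin3a and Grin3b. They were taken by symbol from a table of 23224 genes, and all 7 had a row. The rule is the gene family alone, although earlier results of these data were known when it was set. The 16 libraries held polyA RNA of pancreatic neuroendocrine tumours from RIP1Tag2 mice, a line in which the rat insulin promoter drives the SV40 T antigens and beta cells become tumours. All mice carried this transgene and were 14 to 16 weeks old, at end stage. The B6 control group had 7 libraries from the C57Bl/6 (B6) background, and the labels do not say which of these mice were left untreated and which received saline for 3 days. The C3H control group had 4 libraries from the C3HeB/Fe (C3H) background, with the same control treatment. The B6 MK801 group had 5 libraries from B6 mice injected intraperitoneally with MK801, an open-channel blocker of the NMDA receptor, at 1 mg/kg each day for 3 days. Whether different libraries stem from different mice is not stated in the labels, so the p-values describe the spread between these samples, which may be technical.

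NMDA receptors are glutamate-gated cation channels of the brain that let calcium into the cell when glutamate and a co-agonist, glycine or D-serine, bind while the membrane is depolarised. Each channel is a tetramer that needs GluN1, encoded by Grin1, joined by GluN2 subunits, which bind glutamate, or GluN3 subunits, which bind glycine. The GluN2 subunit sets how strongly magnesium blocks the channel and how long it stays open, and in the mouse brain Grin2c is best known from the cerebellum. Pancreatic beta cells express NMDA receptors at low level, and the title of the series places the receptor's signalling at the centre of the study.

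The promoters of Grin1 and Grin2c are shown here because they are the pair of subunit genes with the highest levels. No relation of these sequences to the levels was tested. The windows are from RefSeq on GRCm38.p6, run from 250 bases before to 50 bases after the annotated start on the minus strand, and are printed 5′ to 3′ with every GGGCGG (the GC box, searched on both strands) in capitals. The window of Grin1 is chr2:25319138-25319437 and that of Grin2c is chr11:115267194-115267493.
Grin1: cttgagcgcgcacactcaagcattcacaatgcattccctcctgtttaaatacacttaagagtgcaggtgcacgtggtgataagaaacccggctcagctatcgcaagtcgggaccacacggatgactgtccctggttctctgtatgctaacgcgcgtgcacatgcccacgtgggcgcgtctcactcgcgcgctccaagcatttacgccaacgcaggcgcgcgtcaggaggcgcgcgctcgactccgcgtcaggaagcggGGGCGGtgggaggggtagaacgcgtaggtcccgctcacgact
Grin2c: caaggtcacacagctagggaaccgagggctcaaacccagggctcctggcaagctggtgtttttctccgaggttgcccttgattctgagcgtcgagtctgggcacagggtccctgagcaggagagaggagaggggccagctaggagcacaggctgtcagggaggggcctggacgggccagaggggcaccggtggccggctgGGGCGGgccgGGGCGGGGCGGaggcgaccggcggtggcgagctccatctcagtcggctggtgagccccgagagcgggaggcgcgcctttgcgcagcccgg
The Grin1 window held 1 GC box, 33 CpG dinucleotides and 60.7% GC. Its GC box overlaps a GCGGGGGCG, a motif known for Egr factors. The Grin2c window held 3 GC boxes, of which 2 overlap each other, 22 CpG dinucleotides and 70.0% GC. Of 32851 promoter windows of the same 300 bases, 35.7% held GGGCGG and 2.91% held GCGGGGGCG, and the median window had 7 CpG dinucleotides and 52.7% GC. The windows of Grin2d (12 CpG) and Grin3b (3 CpG) held no GGGCGG and no GCGGGGGCG. No window was available for Grin2a, Grin2b and Grin3a.

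Levels are given as CPM, estimated counts per 1e+06 counts of the library after TMM scaling. Library totals ran from 38561334 to 57013815 estimated counts. Of the 7 subunit genes, 5 passed the filter on low counts and were among the 16084 genes tested, while Grin2a and Grin3a did not pass. All 9 beta cell markers were present in every group, and their summed level was at least 15799 CPM in every library. The neuroendocrine markers summed to 12975 to 30394 CPM, the neuron markers to 319.7 to 828 CPM and the Schwann and glial markers to 54.3 to 131 CPM, with Sox10 and Gfap under 1 CPM in every library. In bulk tumour RNA, fewer expressing cells and less RNA per cell cannot be told apart.

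Grin1, the obligatory subunit, was detected in every library and was the most abundant of the 7 in most of them. In B6 controls it ran from 3.83 through a median of 19.6 to 95.9 CPM. The C3H controls held 35.9, 24.1, 22.3 and 90.4 CPM, and the MK801 libraries held 34.3, 20.8, 12.7, 79.7 and 34.0 CPM. The 3 groups overlapped, and each had a single library far above its others. The means were 25.1 ± 32.3 CPM in B6 controls (SD, n = 7), 43.2 ± 32.1 CPM in C3H controls (SD, n = 4) and 36.3 ± 25.9 CPM after MK801 (SD, n = 5).

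Grin2c had the widest range of the subunit genes in log2 terms. In B6 controls it ran from 0.148 through a median of 12.6 to 56.9 CPM. The C3H controls held 227, 4.94, 0.982 and 22.04 CPM, so that replicate 1 alone set most of the C3H mean of 63.8 ± 109 CPM. After MK801 the libraries held 13.9, 5.42, 3.54, 51.4 and 10.03 CPM. The groups overlapped over most of their ranges. In C3H replicate 1 the markers of the other islet endocrine cells also summed to the highest level of any library, 2288 CPM, against 29.1 to 859 CPM in the other libraries. Its GC trend, explained further on, was 0.457, the second highest of all. The part of either in the level of Grin2c was not tested.

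The other GluN2 genes were near the limit of detection. Grin2b, the main GluN2 subunit gene of the embryonic forebrain, ran from 0.273 to 1.59 CPM over all libraries, with means of 0.584 ± 0.325 CPM in B6 controls (n = 7), 0.651 ± 0.168 CPM in C3H controls (n = 4) and 0.737 ± 0.492 CPM after MK801 (n = 5). Its highest library was MK801 replicate 4. Grin2d, known from diencephalon and brainstem, ran from 0.0884 to 1.45 CPM, and its means were 0.381 ± 0.477, 0.566 ± 0.403 and 0.378 ± 0.260 CPM in the same order of groups. The highest Grin2d level was that of B6 control replicate 5, which was also the highest for Grin1 and Grin3b.

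Grin2a, the main GluN2 subunit gene of the adult forebrain, was found almost wholly in a single tumour library. B6 control replicate 1 held 114 counts (2.58 CPM), which is 85.7% of all counts of this gene, and the other 15 libraries held 19 counts in all, with at most 5 in any of them. The 4 C3H controls were all at 0 counts. Taking 3 counts over the C3H group as the floor, the pooled level of the 7 B6 controls was at least 24.2-fold higher. Without B6 control replicate 1, the other 6 B6 controls held 7 counts and the bound was at least 1.65-fold. The floor covers counting error only.

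The neuron markers had their highest sum in the same library. Summed, they reached 828 CPM in B6 control replicate 1 against 319.7 to 635 CPM elsewhere (15 libraries), and 3 of 12 markers were highest there (Nefl, Nefm and Mtap1b), while none was at 0. Nefl, the light neurofilament chain, stood at 57.0 CPM there and at no more than 4.52 CPM elsewhere. Of the sum, 541 CPM came from Mtap1b and 133 CPM from Nefm. The other 9 neuron markers were not highest there, among them Slc17a7, Rbfox3 and Camk2a. Slc17a7, Rbfox3 and Nefh were below the median of the other libraries. Th was lower there (13.8 CPM) than in any other library (at least 17.9 CPM). The same library had the lowest sum of beta cell markers, 15799 CPM. The part of these differences in the Grin2a level was not tested.

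The GluN3 genes were the least detected. Grin3a had 17 counts over all 16 libraries and was at 0 in 10 of them, with at most 5 counts in any library. Grin3b ran from 0 to 1.02 CPM. The C3H controls held 0.963, 0.0898, 0.0234 and 0.600 CPM of Grin3b, and the MK801 libraries held 0.451, 0.133, 0.0258, 0.742 and 0.0362 CPM. In B6 controls the highest library held 1.02 CPM and the median was 0.0258 CPM.

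**Figure D1:**
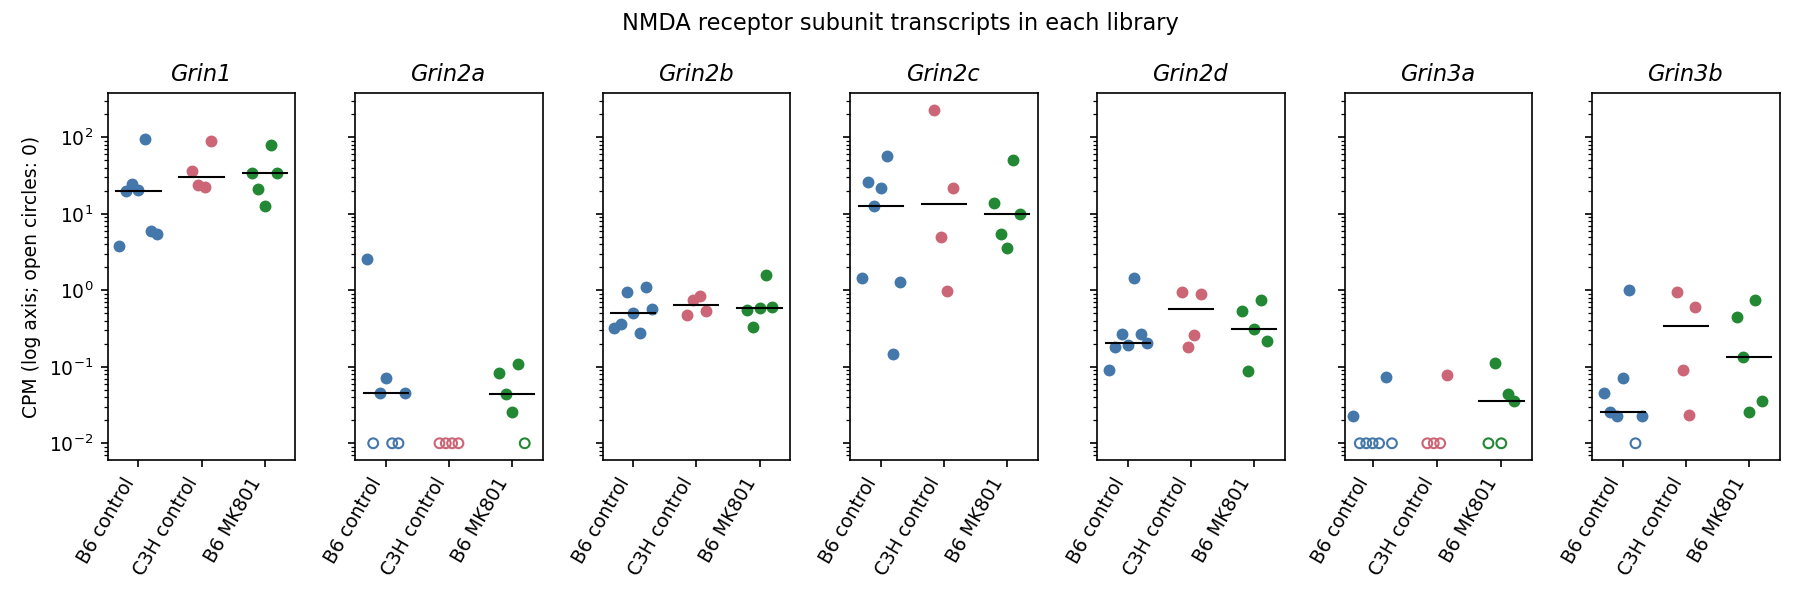
Level of each NMDA receptor subunit gene in each of the 16 libraries, in CPM on a log axis; filled circles are libraries, open circles at the bottom are libraries at 0, and bars are group medians where above 0. Grin1 and Grin2c reach 95.9 and 227 CPM, the 4 other GluN2 and GluN3 genes apart from Grin2a stay at or under 1.59 CPM, and Grin2a is above 1 CPM in a single B6 control library.

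Part of the Grin3b signal may be read from a neighbour, since the labels do not give the strandedness of the counts. In the GENCODE M21 annotation of GRCm38, 1059 exon bases of Grin3b lie opposite exons of Tmem259, a gene of the endoplasmic reticulum membrane. The table lists a row ORF61, an older symbol that RefSeq gives for both Tmem259 and Mrap, and Mrap has its own row. ORF61 ran from 0.595 to 140 CPM. It followed Grin3b over the 16 libraries with a Pearson r of 0.821 after group means were removed, higher than for 96.7% of tested genes. Other genes followed Grin3b more closely without an overlap, such as Taf5 (r = 0.947). Transcripts of Grin3b (63.4% GC) and Tmem259 (61.7% GC) are both GC-rich. The part of GC content in the r of ORF61 was not tested. In the 6 libraries where ORF61 was over 15 CPM, Grin3b held 1 to 45 counts, and in the other 10 it held 0 to 6. Reads of Grin3b and of a transcript on the opposite strand cannot be told apart here. Grin1 and Grin2d also overlap antisense transcripts, Grin1os over 1307 exon bases and Gm45441 over 643, which had no row of their own.

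**Figure D2:**
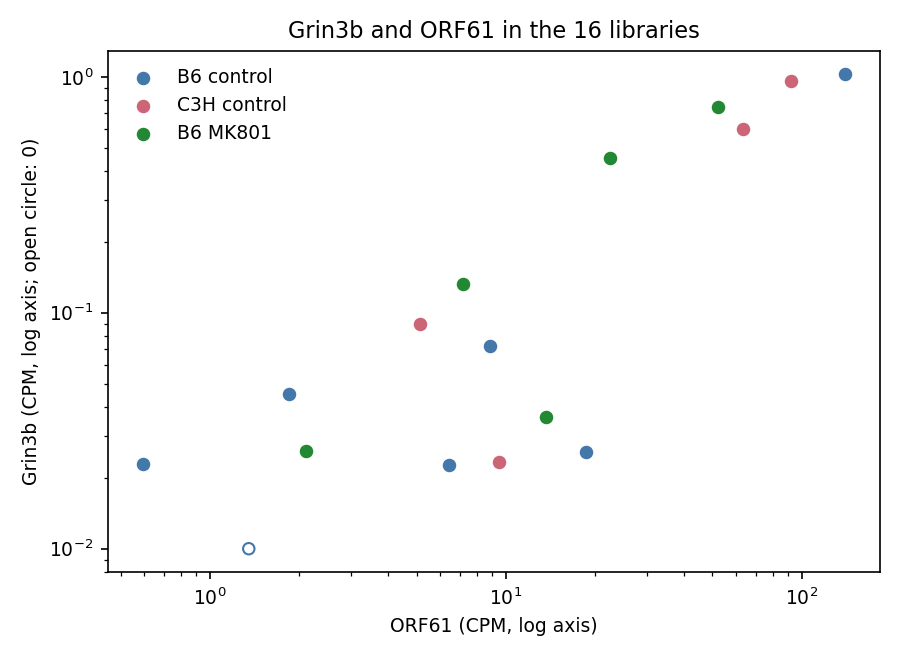
Grin3b against ORF61 in the 16 libraries, both in CPM on log axes, coloured by group, with the library at 0 for Grin3b as an open circle. The libraries with the most Grin3b, up to 1.02 CPM, are among those with the most ORF61, up to 140 CPM, in all 3 groups.

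Between genes, levels were compared per kilobase of the longest transcript. Over all libraries Grin1 averaged 7.74 ± 6.87 CPM per kb (SD, n = 16) and Grin2c 5.87 ± 11.4 CPM per kb. The per-library ranges of these neighbours overlapped, and Grin1 was above Grin2c in 14 of 16 libraries. In C3H controls the mean of Grin2c, 13.03 CPM per kb, was above that of Grin1, 10.1 CPM per kb, but Grin2c was the higher in 1 of 4 libraries. Grin3b (0.0814), Grin2d (0.0785) and Grin2b (0.0270 CPM per kb) followed, and Grin3b was above Grin2d in 6 of 16 libraries, so these neighbours are not separated by their spread. Grin2d was above Grin2b in 16 of 16 libraries, although their overall ranges overlapped. Grin2a (0.0128 CPM per kb) and Grin3a (0.00304 CPM per kb) came last.

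This order depends on the transcript length in its lower part. The longest Grin2b transcript has 24060 bases and the median coding one 1582. With the median coding length, an alternative added after seeing the data, Grin2b moved to the third place at 0.410 CPM per kb, and 4 of 7 genes kept their place, Grin1 and Grin2c among them. Which Grin2b transcripts the tumours made was not analysed here.

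Among the GluN2 transcripts, Grin2c made up most of the total in nearly all libraries. With the longest transcripts, its share of the summed Grin2 CPM per kb had a median of 96.3% and ran from 23.9% to 99.6%, and it was the largest share in 15 of 16 libraries. The exception was B6 control replicate 6, where Grin2d held 39.5%, Grin2b 36.5% and Grin2c 23.9% of a very small total. In B6 control replicate 1, Grin2a held 35.1%. With the median coding lengths the median share of Grin2c was 83.5% and it was largest in 12 of 16 libraries. Grin2b was then the largest in 3 libraries (B6 control replicates 6 and 7 and C3H replicate 3) and Grin2a in B6 control replicate 1. The ratio of Grin1 to the summed Grin2 genes ran from 0.180 to 18.5 with a median of 3.20, and both extremes were C3H libraries, replicates 1 and 3.

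**Figure D3:**
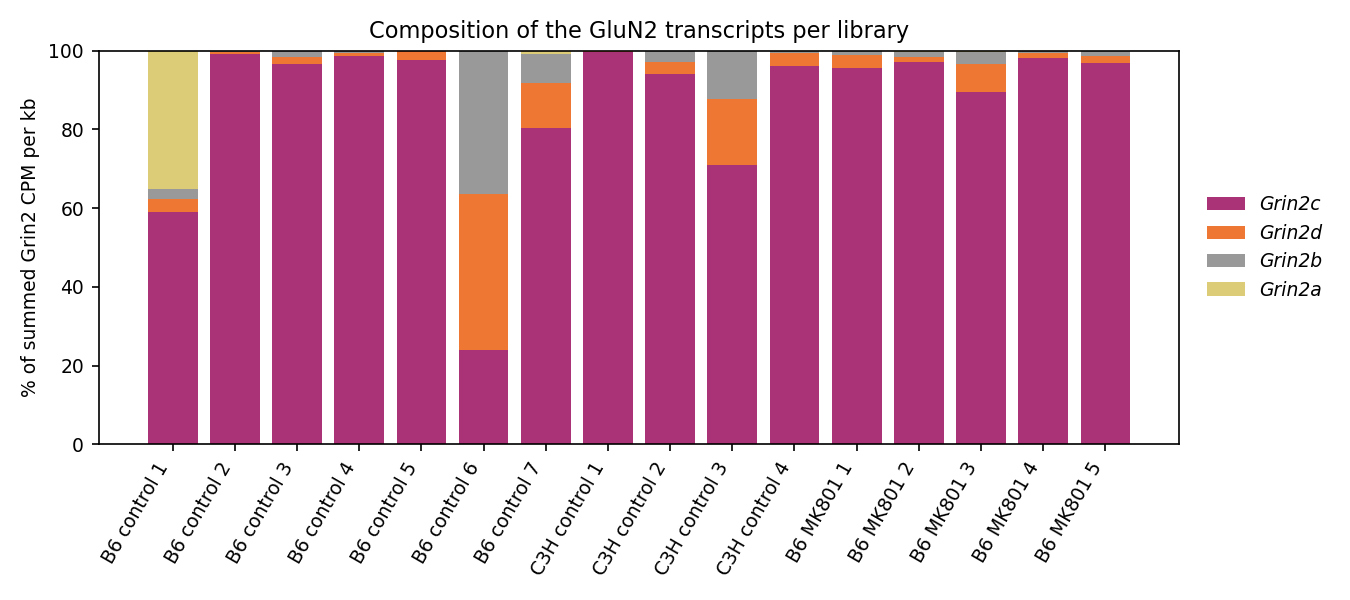
Share of each GluN2 gene in the summed Grin2 CPM per kb of each library, in percent, using the longest transcript of each gene; each stacked bar is a library. Grin2c fills most of the bar in 15 of 16 libraries, and B6 control replicate 6 is the library where Grin2d (39.5%) is largest.

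The strain comparison asked whether tumours of the C3H background differ from B6 tumours, and none of the 7 subunit genes was called. By the quasi-likelihood test of edgeR, at an adjusted p (Benjamini-Hochberg) under 0.05, 2.4% of the 16084 genes tested were called, and 0 of the 5 tested subunit genes, with 0 at an unadjusted p under 0.05. An unadjusted p under 0.05 was reached by 13.8% of all tested genes. DESeq2 and limma-voom, which called 4.94% and 2.26% of all tested genes, called 0 of the 5 as well, and a count of 0 among so few genes is near these backgrounds. Over all genes tested, the CPM ranges of the compared groups were apart for 3.87%, and for 0 of the 7 subunit genes.

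The log2 fold change of Grin1, C3H over B6, was 0.79 ± 0.75 (SE; edgeR adjusted p = 0.701), with a 95% interval from its standard error of -0.69 to 2.26. With a library left out it ran from 0.13, without C3H replicate 4, to 1.71, without B6 control replicate 5 (edgeR adjusted p = 0.976 and 0.129). That of Grin2c was 1.89 ± 1.28 (SE; edgeR adjusted p = 0.566) and became -0.88 without C3H replicate 1. For Grin2b, Grin2d and Grin3b it was 0.16 ± 0.46, 0.57 ± 0.72 and 1.25 ± 1.19 (SE; edgeR adjusted p = 0.909, 0.774 and 0.700). Without B6 control replicate 5 those of Grin2d and Grin3b were 1.48 and 3.61 (edgeR adjusted p = 0.154 and 0.0788), and without C3H replicate 1 they were 0.22 and 0.46 (edgeR adjusted p = 0.951 and 0.935). A fit with no filter, which tested 20268 genes and called 1.85%, gave edgeR adjusted p-values of 0.245 for Grin2a and 0.892 for Grin3a, and an unadjusted p of 0.0155 for Grin2a. An unadjusted p under 0.05 was reached by 2622 of these 20268 genes. The log2 fold change of Grin2a was -7.12 ± 2.57 (SE) in this fit and -2.66 with DESeq2. With all C3H controls at 0 counts, its size is not well determined.

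The MK801 comparison asked what 3 days of channel block changed in B6 tumours, and the subunit genes did not pass there either. The edgeR test called 0.622% of 16084 genes and 0 of the 5 tested subunit genes, with 0 at an unadjusted p under 0.05, beside 12% of all tested genes. DESeq2 and limma-voom, which called 3.99% and 0.634% of all tested genes, called 0 of the 5. Ranges were apart for 1.42% of genes tested and for 0 of the 7 subunit genes. Both comparisons use the same 7 B6 controls. The injection itself and MK801 cannot be told apart, since the labels do not separate saline from untreated controls.

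The log2 fold change of Grin1, MK801 over B6 controls, was 0.54 ± 0.71 (SE; edgeR adjusted p = 0.890), and its 95% interval ran from -0.86 to 1.93. Without B6 control replicate 5 it was 1.45, and without MK801 replicate 4 it was -0.06. Those of Grin2c and Grin2d were -0.03 ± 1.23 and -0.01 ± 0.69 (SE; edgeR adjusted p = 0.997 for each). Those of Grin2b and Grin3b were 0.34 ± 0.43 and 0.66 ± 1.14 (SE; edgeR adjusted p = 0.883 and 0.926), and became -0.21 and -0.17 without MK801 replicate 4. In the fit with no filter, which called 0.316% of genes, Grin2a and Grin3a had edgeR adjusted p-values of 0.552 and 0.730. In both comparisons, p-values that miss the threshold do not show equal levels.

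The spread of the subunit genes between libraries of the same group was large. The SD of log2 CPM within groups was 2.70 for Grin2c, above that of 99.5% of the genes tested, and 1.61 for Grin3b, 1.30 for Grin1, 1.06 for Grin2d and 0.67 for Grin2b, against a median of 0.46 over all tested genes. Of these, 4 genes have GC-rich transcripts. Transcript GC content was 59.4% for Grin1, 62.1% for Grin2c, 63.4% for Grin3b and 65.0% for Grin2d, which places them above 94.6%, 98.4%, 99.3% and 99.7% of tested genes. Grin2b stood at 45.7%, below the median of 49.7%.

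The libraries themselves differed in how levels followed GC content, so this trend is given beside the subunit genes. The GC trend of a library is the Spearman rho, across tested genes, between transcript GC content and the gene's log2 deviation from its mean, and a positive value means that GC-rich transcripts stood high in that library. It ran from -0.457 to 0.589 in B6 controls, from -0.213 to 0.457 in C3H controls and from -0.294 to 0.169 after MK801. Log2 levels of Grin1 rose with it over the 16 libraries (Pearson r = 0.815, permutation p = 0.00013; Spearman rho = 0.797, permutation p = 0.00039). Without the pair of libraries farthest from the median trend, B6 control replicate 5 and C3H replicate 1, r was 0.811 (permutation p = 0.00047). Within the 7 B6 controls r was 0.933 (exact permutation p = 0.0135) and rho 0.750 (exact permutation p = 0.0663), and no value was computed within the 4 C3H or the 5 MK801 libraries. No other relation of this kind was tested, and the trend and the Grin1 level derive from the same table. By the definition of the trend, GC-rich genes rise with it on average. The permutation p-values therefore do not show a relation particular to Grin1.

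The other GC-rich subunit genes followed the trend as well, given here as a description over 16 libraries. Pearson r was 0.872 for Grin2c, 0.739 for Grin2d and 0.738 for Grin3b, and -0.221 for Grin2b. The median over all tested genes was -0.0704, and the r of Grin2c and Grin1 was higher than for 94.5% and 91.6% of tested genes. Such a value is thus not particular to the subunit genes. Whether base composition or another difference between the libraries goes with these levels was not tested.

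**Figure D4:**
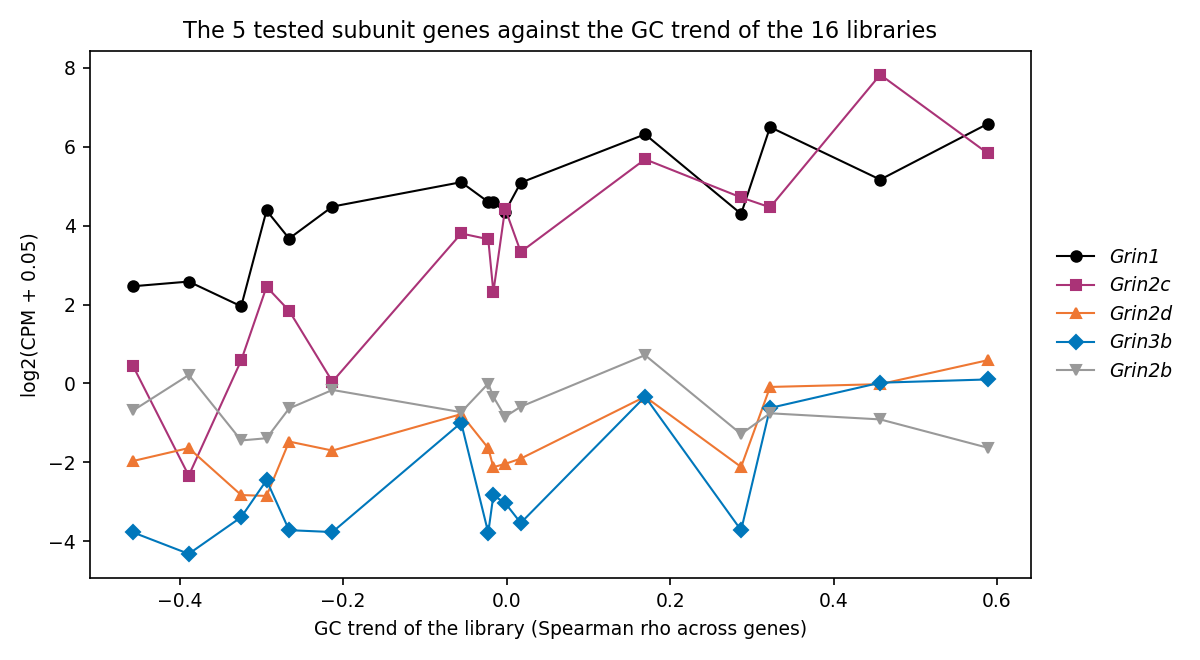
Log2(CPM + 0.05) of the 5 tested subunit genes against the GC trend of the library (Spearman rho across genes, no unit); each point is a library, and lines join the libraries in order of the trend. Grin1, Grin2c, Grin2d and Grin3b are higher at the right (r from 0.738 to 0.872), and Grin2b is not (r = -0.221).

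With the GC trend as a covariate in the same fit, the errors of the GC-rich subunit genes became smaller. The MK801 log2 fold change of Grin1 was then 1.18 ± 0.32 (SE; unadjusted p = 0.00224, edgeR adjusted p = 0.0608) and that of Grin3b was 2.25 ± 0.74 (SE; edgeR adjusted p = 0.107). Neither passed the threshold of 0.05, and the Grin1 value was the lowest adjusted p of any subunit gene under any alternative run. In the MK801 comparison this fit called 388 of 16084 genes, and 2992 genes had an unadjusted p under 0.05. The covariate itself was computed from the levels of the same libraries. In the strain comparison Grin1 stood at 0.74 ± 0.35 (SE; edgeR adjusted p = 0.320), and the Grin2c value turned from 1.89 to -0.34. Grin2b, the subunit gene of low GC content, had nearly the same errors with and without the covariate.

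**Figure D5:**
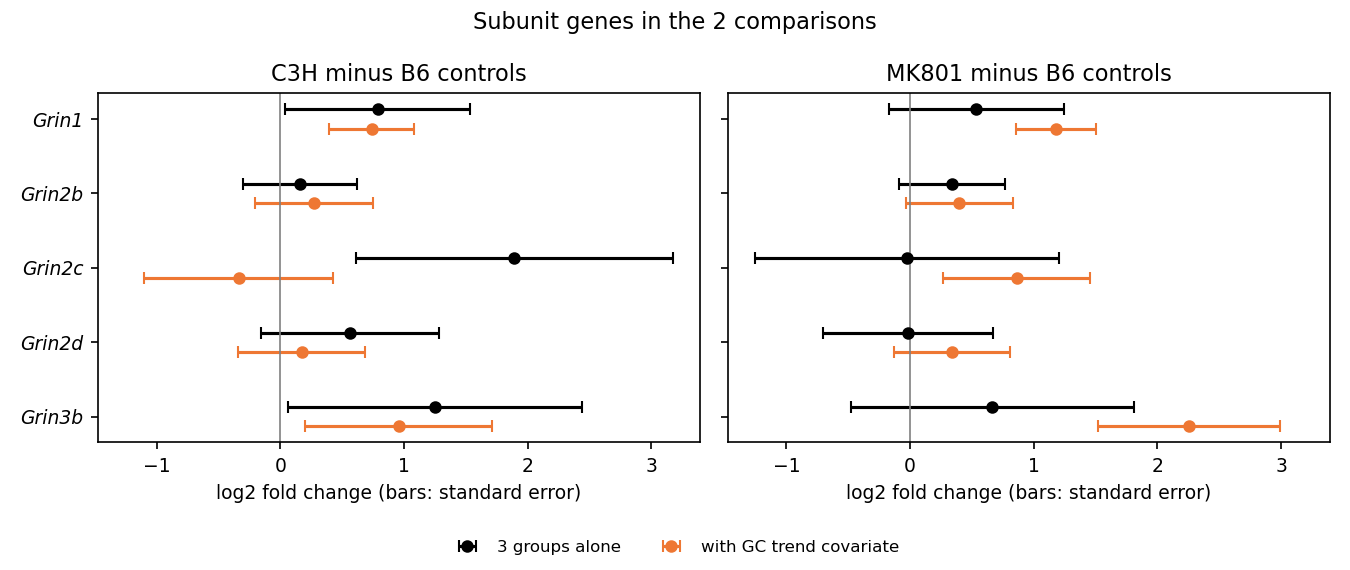
Log2 fold changes of the 5 tested subunit genes in the strain comparison (left) and the MK801 comparison (right), with standard errors as bars, from the fit of the 3 groups alone (black) and with the GC trend as a covariate (orange). Grin1 after MK801 moves from 0.54 to 1.18 with the covariate and Grin2c in C3H from 1.89 to -0.34, and no subunit gene passed the threshold in either fit.

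Among the tested genes whose log2 CPM followed Grin1 most closely, after group means were removed and over 16 libraries, were Mdc1 (r = 0.985), a DNA damage checkpoint gene, Sipa1l3, R3hdm2, Dagla, the diacylglycerol lipase that makes the endocannabinoid 2-AG, Camta2, Ppp1r3e and 2310028H24Rik (r = 0.967). Mdc1 itself ran from 16.4 to 143 CPM. A high r with Grin1 was common, since 8.41% of tested genes had an r over 0.8. The genes most like Grin2c were Dexi (r = 0.969), Zfp523 and C2cd4c. For Grin2d they were Hipk4 (r = 0.916), Ier5 and Shb, and for Grin3b they were Taf5 (r = 0.947), Zfp316 and Nab2. Grin2b was followed less closely, by Tmem63c (r = 0.837), Zfyve1 and Ttll5, and 0.0373% of tested genes had an r over 0.8 with it. Among the subunit genes, Grin1 had an r of 0.760 with Grin2c, 0.738 with Grin2d, 0.723 with Grin3b and -0.046 with Grin2b. All these values share the libraries and the GC trend and carry no test.

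The genes around the receptor were followed in 9 lists with 79 genes, of which 78 had a row and 74 were tested. In C3H tumours 0 were higher and 1 was lower, Dlgap1, against 0.883% higher and 1.52% lower over all tested genes. After MK801 1 was higher, Reln, and 0 were lower, against 0.149% and 0.473%. At an unadjusted p under 0.05 there were 12 of 74 (16.2%) in the strain comparison and 13 of 74 (17.6%) after MK801, beside 13.8% and 12% of all tested genes. The median log2 fold change of the tested partners was 0.03 for C3H and 0.10 for MK801, and -0.03 over all tested genes in both.

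Dlgap1 encodes GKAP, the scaffold protein that ties PSD-95 at the receptor to the Shank proteins. The C3H controls held 0.203, 0.292, 0.678 and 0.967 CPM, and every B6 control and MK801 library held 23.8 CPM or more. The log2 fold change was -5.78 ± 0.42 (SE; edgeR adjusted p = 5.3e-07), and the call was kept in all 29 alternatives run for it. Reln encodes reelin, a secreted protein known in neurons to act on NMDA receptors through lipoprotein receptors. It ran from 2.99 through a median of 6.29 to 20.8 CPM in B6 controls, and the MK801 libraries held 38.2, 39.7, 37.1, 24.8 and 64.7 CPM. All 5 MK801 libraries were above all 7 B6 controls. Reln rose by 2.30 ± 0.43 on the log2 scale (SE; edgeR adjusted p = 0.0281), and the call was lost in 8 of 29 alternatives. Among these were the fit of the 2 groups alone (edgeR adjusted p = 0.058) and leaving out B6 control replicate 3 or 7 or MK801 replicate 2, 3 or 4 (edgeR adjusted p of 0.0513 to 0.0814). Some sums of markers of other cells were lower after MK801 than in B6 controls, while the medians of others were higher. Neuron and acinar sums had medians of 468 and 5634 CPM after MK801, against 416 and 3169 CPM in B6 controls. The 4 B cell markers were at low level. They summed to 0.774 to 2.03 CPM after MK801 and 2.19 to 7.03 CPM in B6 controls. The 9 fibroblast and mural cell markers summed to 405 to 670 CPM after MK801 and 742 to 1414 CPM in B6 controls, and 8 of them had a lower mean after MK801. The 8 macrophage markers summed to 374 to 679 CPM after MK801 and 617 to 1032 CPM in B6 controls, and all 8 had a lower mean. The ranges of the macrophage sums overlapped. The median MK801 log2 fold change over all tested genes was -0.03. None of the fibroblast, mural cell and macrophage markers was at 0 in every library of a group and 0 were called. The part of any of these cells in the level of Reln was not tested.

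The other partners named here are among those with the smallest p in each list and comparison, and none passed the main test. Some passed in an alternative, which is given beside them. Of the co-agonist genes (9 tested), Srr, the serine racemase that makes D-serine, had a strain log2 fold change of -0.33 and Slc1a4, a neutral amino acid transporter, one of 0.56. After MK801 the serine synthesis gene Phgdh had a value of 1.11 (0.56 to 1.26 over 29 alternatives). Shmt2, which makes glycine in mitochondria, had one of 0.50. Of the glutamate supply genes (6 tested), the vesicular transporter genes Slc17a6 and Slc17a8 had strain values of 2.74 and 0.43, and Glul, the glutamine synthetase, had an MK801 value of -0.57. Of the uptake genes (4 tested), Slc1a2 and Slc1a1 had strain values of -1.59 and -0.62, and Slc1a7 and Slc1a3 had MK801 values of 1.77 and -0.38. Slc1a7 passed without B6 control replicate 6 (edgeR adjusted p = 0.0413). The values of Slc17a6 rest on C3H replicates 4 (70.7 CPM) and 1 (17.4 CPM), since the other C3H libraries held 1.10 and 1.19 CPM.

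Under the receptor (14 scaffold genes tested), Dlgap2 had a strain value of -2.30 on the log2 scale, which did not pass (edgeR adjusted p = 0.189, DESeq2 adjusted p = 0.0335), and Homer2 and Shank1 had MK801 values of 2.92 and 3.65. Homer2 was called by DESeq2 (adjusted p = 0.00809). In both of the latter MK801 replicate 4 was far above the rest, at 88.6 CPM for Homer2 and 30.9 CPM for Shank1, and without it the log2 fold changes were 0.67 and 0.36 (edgeR adjusted p = 0.847 and 0.964). Of the trafficking genes (8 tested), Lin7c and Kif17, a motor known to carry GluN2B in dendrites, had strain values of -0.58 and -0.98, of which that of Lin7c passed without B6 control replicate 5 (edgeR adjusted p = 0.0324), and Lin7a and Gipc1 had MK801 values of 0.37 and -0.47. Of the kinases and phosphatases (13 tested), Camk2b and Csnk2b had strain values of 0.62 and -0.44, and Prkca and Fyn had MK801 values of 0.56 and 0.40.

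Of the calcium effectors (8 tested), Rasgrf2, an exchange factor for Ras that binds calmodulin, had the lowest p in both comparisons, with log2 fold changes of 2.95 in C3H and 2.28 after MK801 (edgeR adjusted p = 0.102 and 0.239). The strain value passed with DESeq2 (adjusted p = 0.00907) and with the GC trend as a covariate (edgeR adjusted p = 0.0499). The MK801 value ran from 1.09 to 2.65 over 29 alternatives without passing, around a mean of 38.1 ± 50.8 CPM (SD, n = 5). The calmodulin genes Calm2 and Calm3 had a strain value of -0.57 and an MK801 value of 0.27. Of the membrane partners (5 tested), Neto1, an auxiliary protein known at NMDA and kainate receptors, had values of -1.72 in C3H and 1.37 after MK801, and Reln had one of 1.40 in C3H (edgeR adjusted p = 0.138), which passed with DESeq2 (adjusted p = 0.0446) and without B6 control replicate 1 (edgeR adjusted p = 0.0173). Of the transcription factors known at subunit gene promoters (7 tested), Rcor1, the corepressor of REST, had values of 0.72 and 0.81. Nrf1 had a strain value of -0.25 and Mef2c an MK801 value of -0.61.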

How the data were processed

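Tumour RNA was isolated with the miRNeasy kit and made into Illumina TruSeq libraries, per the labels. RSEM 1.2.12, Bowtie 1.0.1 and mm9 are named in the submitters' processing notes; their roles, the annotation and whether counting used the strand are not stated there. The first deposited table holds estimated counts for each gene, with fractions. The second deposited table holds a normalized signal, the same counts over 1 factor for each library, and served an alternative.

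Estimated counts were rounded and fitted with edgeR 4.0.16 in R 4.3.3 (TMM, filterByExpr, glmQLFit and glmQLFTest, all 3 groups in the fit). Both test groups were set against the B6 controls, with Benjamini-Hochberg adjustment over the 16084 genes tested. Standard errors were derived from the F statistics. Members below the filter were read from a fit with no filter. Log2 levels used a pseudocount of 0.05 CPM in the plot and a prior count of 2 elsewhere. The steps were tested on simulated counts without a GC trend. Known changes were placed only in genes above the levels of Grin2b, Grin2d and Grin3b, so that test does not cover these. GC content and lengths came from GENCODE M21 on GRCm38, another build than that of the files, from which no coordinates are used.

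The members and gene lists were chosen with earlier results of these data known. The genes named are the 7 members, partners called in either comparison, the 2 partners of lowest p per list and comparison, the 8 genes most like Grin1 and the 3 most like each other tested member, and overlapping genes; 2 genes that this rule names are not reported here. The libraries of Homer2, Shank1 and Slc17a6, and the neuron markers of 1 library, were singled out after their values were seen. Alternatives were DESeq2 1.42.0, limma-voom, limma 3.58.1 on the normalized table, other scalings and filters, the 2 groups alone, a replicate block, a GC trend covariate, acinar genes removed and each library left out. Within groups, any pair of libraries differed by a chi-square of at least 116.6 per degree of freedom, and all were kept as replicates.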

Additional observations from a re-analysis of the deposited data

Results flagged for a closer look

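In 20 combinations of a subunit gene and a group, the CPM of the highest and lowest libraries was set against that of the others. Dixon's test was used, and a library stood apart in 9 cases. Chance marks about 1 in 20 such groups of normally distributed values. The many low counts here are not normally distributed, and neither are the right-skewed CPM values of Grin1 and Grin2c. Log2 levels were not tested in this way, so a mark holds for the CPM scale only and may reflect this skew. B6 control replicate 5 stood apart for 3 genes. It held 95.9 CPM of Grin1 (others 3.83 to 24.2 CPM). Grin2d stood at 1.45 CPM there (others at most 0.271 CPM), and Grin3b at 1.02 CPM (others at most 0.0724 CPM). This library also had the highest GC trend, 0.589, whose part in these levels was not tested. B6 control replicate 1 stood apart for Grin2a at 2.58 CPM, against at most 0.0724 CPM in the other B6 controls. For Grin2c, C3H replicate 1 stood apart at 227 CPM (others 0.982 to 22.04 CPM), and MK801 replicate 4 at 51.4 CPM (others 3.54 to 13.9 CPM). MK801 replicate 4 also stood apart for Grin2b at 1.59 CPM (others 0.332 to 0.615 CPM). For Grin3a, where most libraries were at 0, a few counts are enough to mark a library, and these 2 marks carry no weight: B6 control replicate 6 at 0.0739 CPM (3 counts) and C3H replicate 4 at 0.0774 CPM (4 counts).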

How the results depend on the processing

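No subunit gene passed the threshold in any alternative fitted for it (31 for Grin1 and Grin2c, 30 for Grin2b and Grin2d, 29 for Grin3b, 20 for Grin2a and Grin3a), and the lowest adjusted p was 0.0608. DESeq2 gave no adjusted p for Grin2a and Grin3a in MK801. Counts of genes called in the strain comparison (386) were 794 with DESeq2, 231 with the 2 groups alone and 146 without the 3 libraries of highest GC trend, and 207 to 473 with a library left out. Counts in the MK801 comparison (100) were 641 with DESeq2, 181 with limma on log2(normalized value + 1), 64 with no filter, 10 with the 2 groups alone, 388 with the GC trend covariate, 27 and 6 without the 3 libraries of highest and lowest GC trend, and 4 to 202 with a library left out. The main fit assumed no pairing by replicate number. Deviations of same-numbered libraries correlated by -0.312 to 0.114. Libraries of different numbers were not compared in this way, so the check cannot decide on pairing. With the replicate block, 162 genes were called for strain and 1 for MK801, and with the GC trend and the block 198 and 225. The block gave log2 fold changes of -0.65 for Grin2c (strain) and 0.092 for Grin2d (MK801), and with the GC trend -0.79 for Grin2c in strain and 1.006 and 0.99 for Grin2c and Grin2d in MK801; the adjusted p of Reln was 0.14 with the block and 0.0989 with both.

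The following values changed sign, with no call in either setting and the cause not tested. For Grin2c in strain (1.89) they were -0.34 with the GC trend and -1.85 without the 3 libraries of highest trend. For Grin2c in MK801 (-0.03) they were 0.048 with library totals, 1.03 with limma-voom, 0.95 and 0.68 with limma on normalized values plus 1 and plus 10, 0.033 with at least 1 CPM in at least 4 libraries, 0.032 with the 2 groups alone, 0.031 without acinar genes, 0.86 with the GC trend and 0.66 without the 3 libraries of highest trend. For Grin2d in MK801 (-0.01) they were in the same order 0.034, 0.21, 0.19 and 0.078, then 0.037 with the 2 groups alone, 0.038 without acinar genes, 0.34 with the GC trend and 0.88 without the 3 highest. Without the 3 libraries of lowest trend, Grin1 and Grin3b in MK801 were -0.12 and -0.023, and Grin1 in strain kept its sign at 0.13. Grin2a in MK801 was 0.99 with DESeq2. Slc1a1 in strain (-0.62) was 0.27 with limma-voom, 0.24 and 0.15 with limma on normalized values plus 1 and plus 10, and 0.070 with the GC trend, and Slc1a2 (-1.59) was 0.39 with DESeq2 and 0.0615 with limma-voom.

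With a library left out, ranges in MK801 were -0.058 to 1.45 for Grin1, -3.28 to 0.85 for Grin2a, -0.21 to 0.57 for Grin2b, -1.14 to 0.68 for Grin2c, -0.48 to 0.90 for Grin2d -0.17 to 3.03 for Grin3b, -0.62 to 0.028 for Gipc1 and -0.056 to 0.51 for Lin7a. In strain they were 0.13 to 1.71 for Grin1, -7.38 to -3.43 for Grin2a, 0.035 to 0.39 for Grin2b, 0.22 to 1.48 for Grin2d, 0.46 to 3.61 for Grin3b, -0.88 to 2.60 for Grin2c, -2.52 to 1.85 for Grin3a, -0.78 to 0.80 for Slc1a1 and -1.95 to 0.45 for Slc1a2. Those of Grin2a rest on a C3H group at 0 counts, and DESeq2 gave -2.66. The order of levels kept 4 of 7 places with the median coding length. Under 10 CPM, few counts limit Grin2a, Grin2b, Grin2d, Grin3a and Grin3b.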
